A study of Mus musculus with 8 samples.

Results

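Glycolytic isozyme genes, 10 in all, were described across UTX mutant and control mouse myoblasts: the hexokinases Hk1 and Hk2, the phosphofructokinase subunits Pfkl, Pfkm and Pfkp, the aldolases Aldoa and Aldoc, phosphoglycerate kinase Pgk1, and the lactate dehydrogenase subunits Ldha and Ldhb. They were taken by symbol, 10 of 23158 symbols, and each had 1 locus in each of the 3 gene tables. Aldoa shared its locus with Ppp4c in the KI table, so its KI values are of the merged locus. The cells were myoblasts grown from satellite cells, the muscle stem cells, of B6/129 mice and differentiated for 24 h, and RNA abundance was given as FPKM, the number of sequenced fragments relative to the transcript's length and the library's mapped total.

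The groups were female KO (1 library; floxed UTX, Pax7-CreER and a floxed TdTomato reporter at Rosa26) and female WT (1 library; the same Cre and reporter without floxed UTX), male KO and male WT (1 library each), and female KI and female Ctrl-KI (2 libraries each). UTX is the H3K27 demethylase encoded by the X-linked gene Kdm6a. All cells were grown with 2.5 µM 4-hydroxytamoxifen, which activates CreER, in medium with 20% serum, and sorted for the reporter. Genotypes are spelled out in the labels for the female KO and WT libraries alone; the KI allele and the ages of the mice are not given there. The KI table holds 1 pooled column per group, so no comparison has replicate values. Each comparison is therefore described without a p-value, which only a fit over both sexes of KO gives, and the deposited confidence bounds are the error given with each FPKM.

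Glycolysis splits glucose into pyruvate in the cytosol. Hexokinase traps glucose in the cell, phosphofructokinase commits it to the pathway, aldolase splits the sugar, phosphoglycerate kinase makes ATP, and lactate dehydrogenase reduces pyruvate to lactate. Most of these steps have several isozymes, and muscle is known for its own set: Hk2, Pfkm, Aldoa and Ldha, with Ldhb more typical of the heart. Many of these genes are also known targets of the hypoxia-inducible factor HIF, whose recognition element contains the bases ACGTG.

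Promoter windows from RefSeq (build GRCm38.p6, 250 bases before to 50 after an annotated start) were found for 10 of 10 genes, 18 windows in all. Printed here, 5′ to 3′ on the gene's strand, are the windows of the genes whose levels are contrasted below: the Ldha and Ldhb pair, Pgk1, which was nearly equal in KO and WT cells, Hk2 and Pfkp. Capitals mark ACGTG or its reverse complement CACGT. They were chosen for printing after the matches and values were seen.
Ldha, chr7:46845554-46845853, plus strand: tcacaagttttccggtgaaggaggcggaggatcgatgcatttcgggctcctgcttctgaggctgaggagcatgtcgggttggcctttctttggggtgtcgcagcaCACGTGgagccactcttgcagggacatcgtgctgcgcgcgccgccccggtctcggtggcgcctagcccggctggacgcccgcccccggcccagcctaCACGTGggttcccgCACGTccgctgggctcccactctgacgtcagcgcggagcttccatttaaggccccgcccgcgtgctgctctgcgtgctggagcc
Pgk1, chrX:106186850-106187149, plus strand: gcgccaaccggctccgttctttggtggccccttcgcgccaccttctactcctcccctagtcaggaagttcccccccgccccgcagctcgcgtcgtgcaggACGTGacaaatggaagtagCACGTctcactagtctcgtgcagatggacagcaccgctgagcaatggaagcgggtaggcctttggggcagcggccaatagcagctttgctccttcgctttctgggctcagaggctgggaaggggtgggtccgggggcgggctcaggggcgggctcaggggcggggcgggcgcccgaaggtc
Hk2, chr6:82774405-82774704, minus strand: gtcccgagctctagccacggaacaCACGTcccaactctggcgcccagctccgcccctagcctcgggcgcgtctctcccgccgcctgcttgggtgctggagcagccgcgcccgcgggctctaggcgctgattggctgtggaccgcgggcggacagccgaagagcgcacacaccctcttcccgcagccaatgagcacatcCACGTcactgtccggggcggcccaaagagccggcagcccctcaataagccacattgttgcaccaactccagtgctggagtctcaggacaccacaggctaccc
Pfkp, chr13:6648722-6649021, minus strand: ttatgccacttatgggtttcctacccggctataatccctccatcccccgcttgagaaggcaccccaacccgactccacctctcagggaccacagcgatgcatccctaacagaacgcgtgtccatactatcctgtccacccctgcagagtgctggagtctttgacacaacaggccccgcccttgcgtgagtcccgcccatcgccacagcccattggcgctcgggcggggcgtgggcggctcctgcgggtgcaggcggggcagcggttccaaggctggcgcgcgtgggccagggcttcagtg
Ldhb, chr6:142507908-142508207, minus strand: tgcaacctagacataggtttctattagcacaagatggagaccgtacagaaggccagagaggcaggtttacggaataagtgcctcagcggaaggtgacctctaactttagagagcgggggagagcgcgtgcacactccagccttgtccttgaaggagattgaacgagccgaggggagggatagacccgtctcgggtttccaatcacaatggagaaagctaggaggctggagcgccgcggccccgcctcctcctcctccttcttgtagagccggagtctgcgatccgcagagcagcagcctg
ACGTG was present on either strand in 9 of the 18 windows, in at least 1 window of 7 of the 10 genes, and in 19.6% of all 32851 windows of 300 bases. Some windows of the same gene overlap, as for Aldoa and Pfkm. The share of all genes with a match in any window was not computed, so the count per gene has no background. The first of 2 Ldha windows held 5 matches, counting each of its 2 CACGTG stretches once on each strand, and the second, not printed, held 0. The 4 Pfkm windows held 3, 1, 0 and 0 matches, with 1 CACGTG in the first, and 1.73% of all windows held 3 or more. Pgk1 and Hk2 had 2 matches each, and the Pfkp and Ldhb windows had 0. The general E-box CANNTG, which overlaps ACGTG in CACGTG, was found in 13 of the 18 windows and in 72.3% of all windows. These are matches of letters in 1 window per start, and which starts the cells used was not measured here.

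With a floor of 1 FPKM in at least 1 of the columns, the female table kept 12344 genes, the male 11440 and the KI 11084, with median log2 ratios of -0.08, -0.02 and -0.04. Read counts are not kept in FPKM. From lower to upper bound, the typical width relative to the FPKM (median) was 120% in female KO and 119% in female WT, 167% in male KO and 171% in male WT, and 39.8% in KI and 40.0% in Ctrl-KI. Kdm6a was 16.9 FPKM in female KO and 20.8 in female WT cells, 2.08 in male KO and 7.87 in male WT cells, and 13.2 in KI and 12.8 in Ctrl-KI cells, over the whole gene, so the deleted part is not checked. Of all genes at least 2-fold apart, 50.5% were higher in female KO than in WT cells, 60.5% in male KO and 81.2% in KI. That split moved with the scaling: centring on the median gave 63.2% in females. Rescaling to TPM over genes other than small RNAs gave 74.3% in females and 71.6% in males and moved the median ratio to 0.11 and 0.15. TPM over all loci gave 73.7%, 9.12% and 10.4% in females, males and KI, with medians of 0.10, -0.70 and -0.77. Symbol-free loci, which enter that total, took up 86.1% of the FPKM sum in male KO against 72.8% in male WT, and 77.6% in KI against 57.1% in Ctrl-KI. The muscle markers Myod1 and Myog were present in every column. Myod1 was 104 FPKM in female KO and 190 in female WT, 701 in male KO and 1005 in male WT, and 620 in KI and 906 in Ctrl-KI cells. In the same order Myog was 817 and 1305, 961 and 3424, and 2827 and 3201 FPKM. Of the 10 listed muscle markers, 0 were at least 2-fold higher and 4 lower in female KO (4.49% and 4.4% of all genes). In male KO 1 and 5 of 9 were (9.9% and 6.47%), and in KI 0 and 0 of 10 (3.86% and 0.893%). The higher marker in males was Pax7, a satellite cell marker, at 16.3 FPKM in KO against 5.82 in WT, with overlapping bounds. Pax7 was 5.54 in female KO and 4.33 in female WT, and 3.30 in KI and 3.33 in Ctrl-KI cells.

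**Figure D1:**
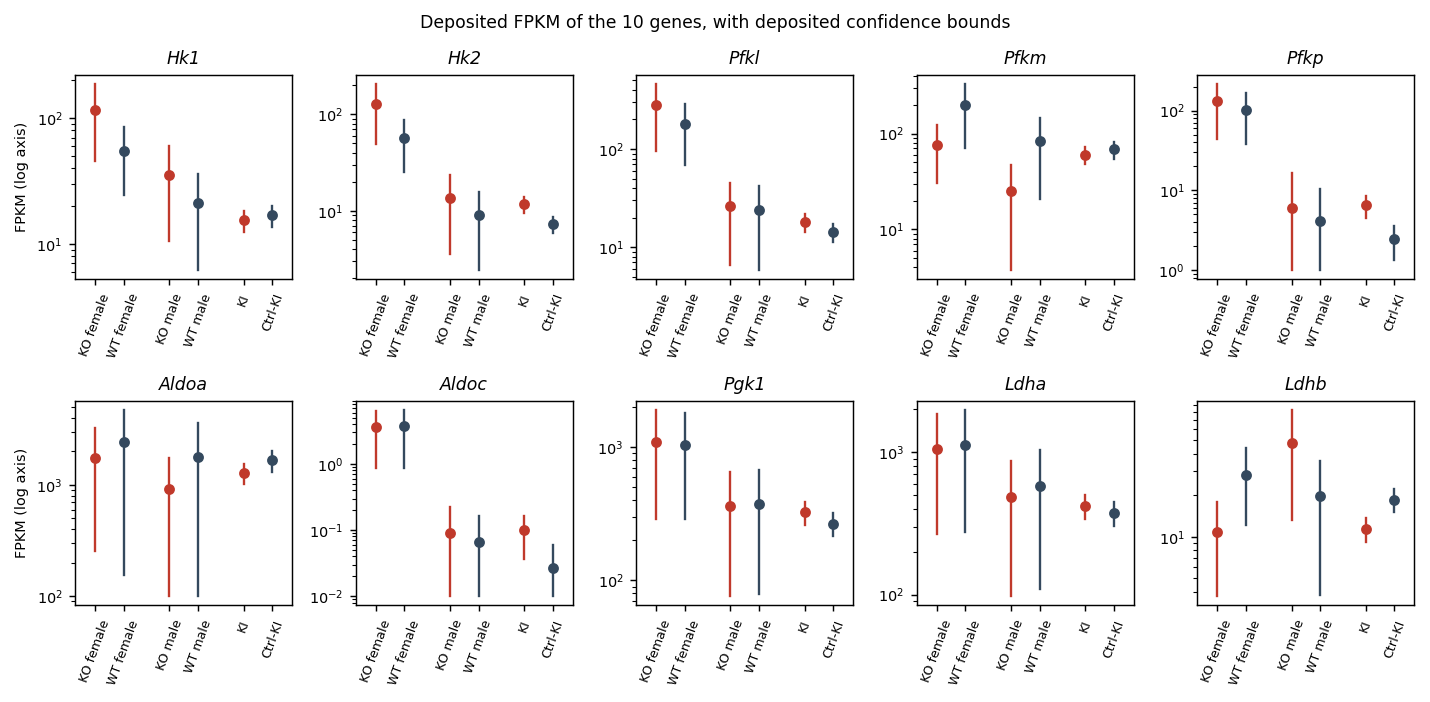
FPKM of each gene (log axis) in the 6 columns, with mutant columns in red left of their control in dark grey-blue; points are deposited values and lines the deposited bounds, drawn to the axis floor where the lower bound is 0. Hk1, Hk2, Pfkl and Pfkp lie higher in both female KO and WT columns than in the other tables, and Ldhb is lower in female KO (10.8 FPKM) but higher in male KO (48.0 FPKM) than in WT.

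The gene of the 10 with the lowest KO to WT ratio in both sexes was Pfkm, which encodes the muscle subunit of phosphofructokinase (mm9 chromosome 15, 97869175 to 97962878 in the KO tables). Its level was 76.7 FPKM in female KO (bounds 30.3 to 123) and 201 in female WT cells (71.2 to 332), a log2((FPKM + 1)/(FPKM + 1)) ratio of -1.38. In males it was 25.3 FPKM in KO (3.77 to 46.9) and 82.9 in WT cells (20.8 to 145), ratio -1.67. With the pseudocount of 1 FPKM, Pfkm was thus 2.61-fold lower in female and 3.18-fold lower in male KO cells, although the bounds of KO and WT overlapped in both sexes. In the KI table it was 60.1 FPKM in KI (47.8 to 72.4) and 68.4 in Ctrl-KI cells (54.5 to 82.2), ratio -0.18, with overlapping bounds.

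The other subunits were not lower in KO cells. Pfkl, the liver-type subunit (mm9 chromosome 10, 77449694 to 77472541 in the female table), was 278 FPKM in female KO (94.8 to 461) and 178 in female WT cells (69.4 to 287), ratio 0.64. It was 26.1 in male KO and 24.0 in male WT cells, ratio 0.11, and 18.2 in KI and 14.3 in Ctrl-KI cells, ratio 0.32. Pfkp, the platelet-type subunit (mm9 chromosome 13, 6547403 to 6647970 in the KO tables), was 131 FPKM in female KO and 102 in female WT cells, ratio 0.36, and 5.98 in male KO and 4.11 in male WT cells, ratio 0.45, where both lower bounds were 0. Neither reached 2-fold in KO cells, and their male ratios turned negative with TPM over all loci.

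As shares of the family's summed FPKM, which do not depend on how columns were scaled, Pfkm made up 15.8% in female KO against 41.9% in female WT cells, and 44.2% in male KO against 74.7% in male WT cells. The Pfkl share was higher, 57.3% in female KO against 37.0% in female WT cells, and 45.4% in male KO against 21.6% in male WT cells. With the deposited bounds set against each other, the Pfkm share could lie anywhere from 4.28% to 47.0% in female KO and from 13.6% to 75.5% in female WT cells, so the shares overlapped within that error. The summed phosphofructokinase FPKM was 485 in female KO and 481 in female WT cells, against 57.4 in male KO and 111 in male WT cells. Thus the family's total was nearly equal in the female libraries, while in males it was lower in KO along with Pfkm.

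**Figure D2:**
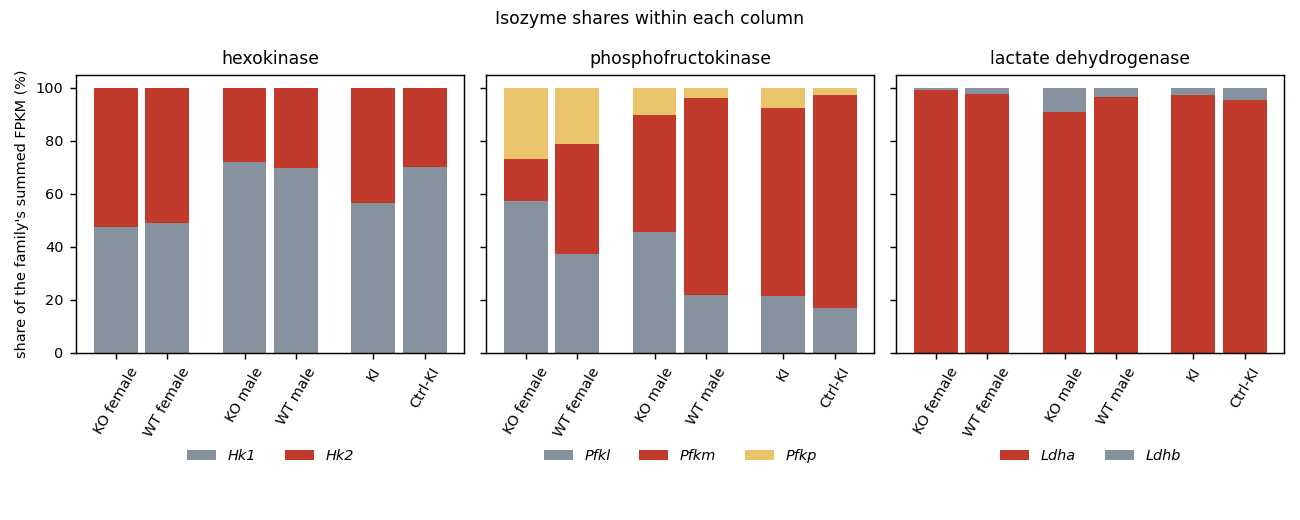
Share of each isozyme (%, stacked bars from 0) in the summed FPKM of its family, for hexokinase, phosphofructokinase and lactate dehydrogenase in the 6 columns. The Pfkm share is lower in KO than in WT in both sexes (15.8% against 41.9%, and 44.2% against 74.7%), and the Ldhb share is highest in male KO at 9.06%.

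Of the lactate dehydrogenase subunits, the minor one, Ldhb, differed past 2-fold and Ldha did not. Ldha, which encodes the muscle-type subunit (mm9 chromosome 7, 54101174 to 54110997), was 1055 FPKM in female KO (267 to 1844) and 1121 in female WT cells (274 to 1968), ratio -0.09. It was 482 in male KO (97.3 to 867) and 574 in male WT cells (109 to 1039), ratio -0.25, and 418 in KI (338 to 498) and 374 in Ctrl-KI cells (303 to 446), ratio 0.16. Ldha was among the most abundant RNAs, ranking 24 of 12344 in female WT, 121 of 11440 in male WT and 173 of 11084 in Ctrl-KI cells, and was within 2-fold in each table, except for a male ratio of -1.04 with TPM over all loci.

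Ldhb, the heart-type subunit (mm9 chromosome 6, 142438769 to 142456463), lay on opposite sides of WT in the KO libraries of the sexes. It was 10.8 FPKM in female KO (3.70 to 17.8) and 27.9 in female WT cells (12.2 to 43.7), ratio -1.30. It was 48.0 in male KO (13.3 to 82.8) and 19.6 in male WT cells (3.78 to 35.5), ratio 1.25. In the KI table Ldhb was 11.4 FPKM in KI (9.11 to 13.6) and 18.6 in Ctrl-KI cells (15.0 to 22.2), ratio -0.66, and these bounds did not overlap. The mutants of the 3 separately estimated tables thus ranged from 10.8 to 48.0 FPKM and the controls from 18.6 to 27.9 FPKM. With 1 library per sex and genotype the difference between the sexes was not tested. Among the 10482 genes found in both sexes, 8 or 0.0763% were, like Ldhb, at least 2-fold lower in female and at least 2-fold higher in male KO cells. The reverse order was not counted. The pattern was picked from these same values, so its rarity is no test of Ldhb. Past 2-fold in the same direction in both sexes were 1 of the 9 glycolytic genes found there on the lower side (Pfkm) and 0 on the higher side, where 2.12% and 1.71% of all genes were. The male ratio of Ldhb was 0.46 with TPM over all loci and stayed above 1 in the other settings tried.

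Ldhb made up 1.01% of lactate dehydrogenase FPKM in female KO against 2.43% in female WT cells, 9.06% in male KO against 3.31% in male WT cells, and 2.65% in KI against 4.74% in Ctrl-KI cells. The ratio of Ldha to Ldhb was accordingly 98.1 in female KO against 40.1 in female WT cells, 10.03 in male KO against 29.2 in male WT cells, and 36.7 in KI against 20.1 in Ctrl-KI cells. Ldha remained the predominant subunit in each of the 6 columns.

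Both hexokinases were higher in the KO libraries. Hk2, the hexokinase of insulin-responsive tissues such as muscle (mm9 chromosome 6, 82675021 to 82724448), was 129 FPKM in female KO (49.9 to 208) and 56.9 in female WT cells (25.4 to 88.4), ratio 1.17. It was 13.7 in male KO (3.59 to 23.7) and 9.07 in male WT cells (2.44 to 15.7), ratio 0.54. Hk1, the widely expressed isozyme (mm9 chromosome 10, 61731603 to 61842656), was 116 FPKM in female KO (45.3 to 187.5) and 54.7 in female WT cells (24.3 to 85.1), ratio 1.08, and 35.1 in male KO (10.5 to 59.6) and 21.0 in male WT cells (6.22 to 35.8), ratio 0.71. So both passed 2-fold in females and neither did in males, where TPM over all loci turned the ratios to -0.05 for Hk1 and -0.17 for Hk2.

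The Hk2 share of the hexokinase sum was 52.5% in female KO against 51.0% in female WT cells, and 28.0% in male KO against 30.2% in male WT cells. In the KI table the 2 genes differed in direction. Hk2 was 11.8 FPKM in KI (9.60 to 14.1) and 7.22 in Ctrl-KI cells (5.85 to 8.60), ratio 0.64 with bounds apart, whereas Hk1 was 15.4 in KI (12.5 to 18.4) and 16.9 in Ctrl-KI cells (13.7 to 20.1), ratio -0.12. The Hk2 share was 43.4% in KI (34.3% to 52.9% at opposite bounds) against 30.0% in Ctrl-KI cells (22.6% to 38.6%).

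Among aldolases, Aldoa, the muscle isozyme (mm9 chromosome 7, 133938748 to 133943961 in the female table), was the most abundant of the 10 genes in every column. It was 1757 FPKM in female KO (253 to 3259.8) and 2419 in female WT cells (154 to 4684), ratio -0.46, and 926 in male KO (101 to 1751) and 1784 in male WT cells (0 to 3618), ratio -0.95. The merged Aldoa and Ppp4c locus was 1268 FPKM in KI (1008 to 1528) and 1664 in Ctrl-KI cells (1310.0 to 2018), ratio -0.39. Aldoa was lower in the mutant column of each table, within 2-fold and with overlapping bounds. With TPM over all loci its ratio was past 2-fold in males (-1.74) and KI (-1.23). Aldoc, the brain-type aldolase (mm9 chromosome 11, 78137700 to 78140262), was 3.62 FPKM in female KO and 3.70 in female WT cells, ratio -0.02. It stayed at 0.0908 in male KO, 0.0655 in male WT, 0.101 in KI and 0.0268 in Ctrl-KI cells, under the 1 FPKM filter.

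Pgk1, the X-linked phosphoglycerate kinase (mm9 chromosome X, 103382463 to 103399038), was nearly equal in KO and WT cells. It was 1095 FPKM in female KO (287 to 1903) and 1043 in female WT cells (289 to 1797), ratio 0.07, and 365 in male KO (76.2 to 655) and 377 in male WT cells (79.2 to 676), ratio -0.05 (-0.84 with TPM over all loci). In the KI table it was 325 FPKM in KI (263 to 388) and 268 in Ctrl-KI cells (217 to 319), ratio 0.28. The bounds overlapped in each of the 3 tables.

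In the KI table Pfkp was the sole gene of the 10 past 2-fold. It was 6.46 FPKM in KI (4.43 to 8.49) and 2.44 in Ctrl-KI cells (1.33 to 3.56), ratio 1.12, with bounds apart. Its share of phosphofructokinase was 7.62% in KI against 2.87% in Ctrl-KI cells, while Pfkm made up 70.9% in KI and 80.3% in Ctrl-KI cells. Its level was low, and its ratio was under 2-fold with a pseudocount of 5 FPKM (0.62) and with TPM over all loci (0.42).

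**Figure D3:**
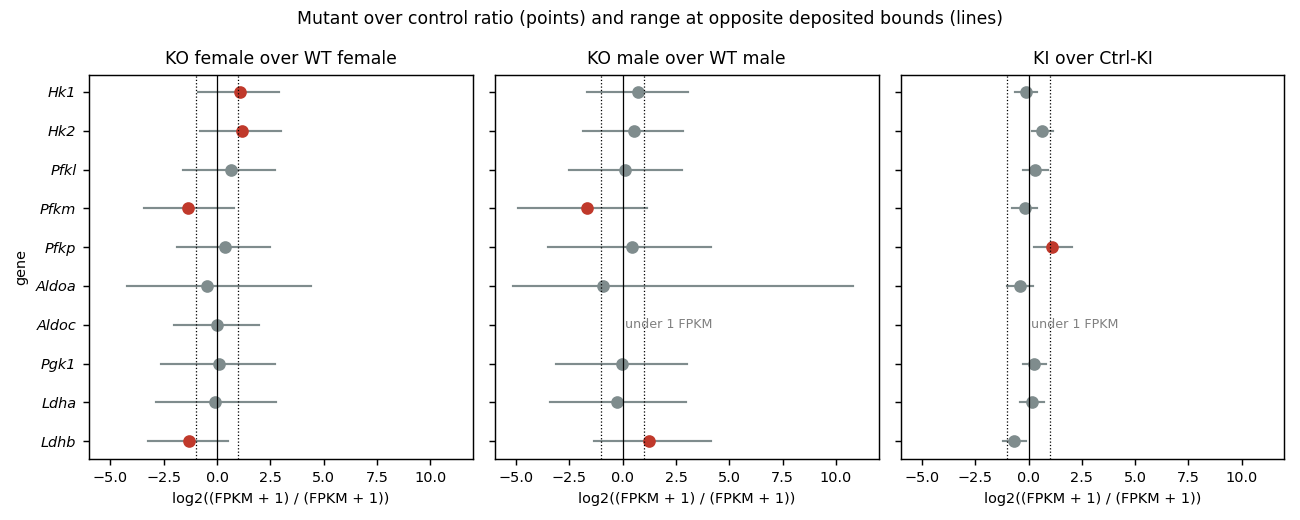
Log2((FPKM + 1)/(FPKM + 1)) of mutant over control for each gene in the 3 tables; points past 2-fold (dotted lines) are red, and lines run between the ratios at opposite deposited bounds. In the KO tables every line crosses 0, and in the KI table the lines of Hk2, Pfkp and Ldhb do not.

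In counts, 2 of 10 genes were at least 2-fold higher in female KO cells (Hk1, Hk2) and 2 were at least 2-fold lower (Pfkm, Ldhb), where 4.49% and 4.4% of all genes were. The bounds were apart for 0 of the 10 and for 0.899% of all genes. In males 1 of 9 was at least 2-fold higher (Ldhb) and 1 at least 2-fold lower (Pfkm), where 9.9% and 6.47% of all genes were, and bounds were apart for 0 of 9 and for 0.865% of all. With TPM over all loci the male split was 0 higher and 3 lower (Pfkm -2.37, Aldoa -1.74, Ldha -1.04). For KI the count was 1 of 9 past 2-fold on the higher side and 0 on the lower, where 3.86% and 0.893% of all genes were. There the bounds were apart for 3 of 9 and for 12% of all genes: Hk2 and Pfkp were higher, where 8.27% of all genes were, and Ldhb was lower, where 3.73% were. The median log2 ratio of the genes was 0.02 in female KO, 0.11 in male KO and 0.16 in KI, against the medians of all genes given above.

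The KO effect was also fitted over both sexes with limma, taking the female and the male ratio as 2 measurements with 1 residual degree of freedom. Moderation over all genes brought the total to 5.53 degrees of freedom, so much of the error was borrowed from other genes. After Benjamini-Hochberg adjustment over 10482 genes, 0 genes passed 0.05 (0% higher, 0% lower), and 2079 (19.8%) had an unadjusted p under 0.05. Among 9 genes fitted, 4 had an unadjusted p under 0.05. Pfkm had a mean log2 ratio of -1.53 ± 0.21 (moderated SE of limma), lower in 2 of 2 sexes, with an adjusted p of 0.0922 (0.0485 to 0.663 over the settings tried, the lowest with a filter of 5 FPKM). Hk1 had 0.89 ± 0.22 with an adjusted p of 0.129, Hk2 0.85 ± 0.25 with 0.161, and Aldoa -0.70 ± 0.21 with 0.162, each in the same direction in 2 of 2 sexes. Ldhb had -0.03 ± 0.58, the widest error of the 9, with an adjusted p of 0.988.

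The order of the levels was similar in all columns. Aldoa stood first, followed by Ldha and Pgk1, whose bounds overlapped in every column, and Aldoc stood last. Pfkm had rank 4 in both WT libraries, in KI and in Ctrl-KI cells, rank 8 in female KO and rank 7 in male KO cells. In the KO and WT columns neighbours in this order overlapped in their bounds, except Pfkm above Ldhb in female KO and Ldhb above Aldoc in female WT cells. In KI 5 of 9 and in Ctrl-KI 6 of 9 neighbouring pairs had bounds apart.

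Among the other glycolytic enzymes, Pgam2 had the lowest KO to WT ratio in both sexes. Pgam2, the muscle phosphoglycerate mutase, was 32.4 FPKM in female KO and 134 in female WT cells (ratio -2.02, bounds apart), and 40.7 in male KO and 224 in male WT cells (ratio -2.43). Its partner Pgam1, the general form, was 587 in female KO and 386 in female WT cells (0.60), and 281 in male KO and 185 in male WT cells (0.60). Pgam2 thus made up 5.23% of the pair in female KO against 25.8% in female WT cells, and 12.7% in male KO against 54.8% in male WT cells. Eno3, muscle enolase, was 119 FPKM in female KO and 419 in female WT cells (ratio -1.80), and 249 in male KO and 433 in male WT cells (-0.80), while Eno1, the general enolase, was 1335 in female KO and 1566 in female WT cells (-0.23), and 493 in male KO and 546 in male WT cells (-0.15). Of the 11 enzymes of this list above the floor, 0 were past 2-fold on the higher and 2 on the lower side in female KO, 0 and 1 of 10 in male KO, and 0 and 0 of 10 in KI. The medians were -0.47, -0.22 and -0.10. These counts, and those of the lists below, stand beside the shares of all genes at least 2-fold higher and lower. Those shares were 4.49% and 4.4% in female KO, 9.9% and 6.47% in male KO, and 3.86% and 0.893% in KI.

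The other steps named here were within 2-fold. Gpi1, glucose phosphate isomerase, had ratios of 0.32 in female KO, -0.48 in male KO and -0.09 in KI. Tpi1, triose phosphate isomerase, had -0.82, -0.80 and -0.07. Gapdh had -0.58, -0.28 and -0.18, and pyruvate kinase Pkm 0.15, 0.48 and -0.04. The Tpi1 and Gapdh loci were merged with another symbol in the KI table.

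Genes of glucose uptake and glycogen use had median ratios of -0.52 over 12 genes in females and -1.23 over 10 in males, against -0.25 in KI. Past 2-fold on the higher and the lower side were 1 and 3 of 12 in female KO, 1 and 6 of 10 in male KO, and 0 and 0 of 10 in KI. Slc2a4, the insulin-responsive glucose transporter, was 3.74 FPKM in female KO and 20.2 in female WT cells (-2.16, bounds apart), and 1.52 in male KO and 9.08 in male WT cells (-2.00). Pygm, muscle glycogen phosphorylase, was 73.5 in female KO and 218 in female WT cells (-1.56), and 54.6 in male KO and 147 in male WT cells (-1.41). Phkg1, a phosphorylase kinase subunit, was 0.551 in female KO and 2.77 in female WT cells (-1.28). In males glycogenin Gyg (34.5 in KO, 99.1 in WT) and glycogen synthase Gys1 (30.9 in KO, 81.0 in WT) were also lower, whereas Pygb, the brain-type phosphorylase, was higher at 9.32 in KO against 2.83 in WT cells. Slc2a3, a high-affinity glucose transporter, was higher in female KO at 59.1 against 21.5 in WT cells. Slc2a1, the general transporter, was 388 in female KO and 271 in female WT cells (0.51), 20.7 in male KO and 17.5 in male WT cells (0.23), and 23.5 in KI and 11.5 in Ctrl-KI cells (0.96, bounds apart).

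Of 15 genes for lactate and pyruvate handling above the floor, 0 were past 2-fold on the higher side and 2 on the lower side in KO cells of either sex, with medians of -0.62 in females and -0.57 in males. These were Mpc2, a subunit of the mitochondrial pyruvate carrier (11.02 FPKM in KO, 24.9 in WT), and the kinase Pdk2 (13.7 in KO, 32.7 in WT) in females, and Mpc1, the other carrier subunit (25.8 in KO, 58.0 in WT), and the phosphatase Pdp1 (8.82 in KO, 20.6 in WT) in males. In KI cells 1 was at least 2-fold higher, the lactate exporter Slc16a3, at 13.8 FPKM in KI against 3.71 in Ctrl-KI cells (1.66, bounds apart), with a list median of -0.10. In KO cells Slc16a3 was 111 in female KO and 121 in female WT cells (-0.12) and 6.31 in male KO and 6.49 in male WT cells (-0.03). Among glycolysis regulators Pfkfb3, which makes the activator of phosphofructokinase, was 203 in female KO and 97.4 in female WT cells (1.05), 1 of 4 measured. The list had 0 of 4 past 2-fold in male KO and 0 of 4 in KI.

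**Figure D4:**
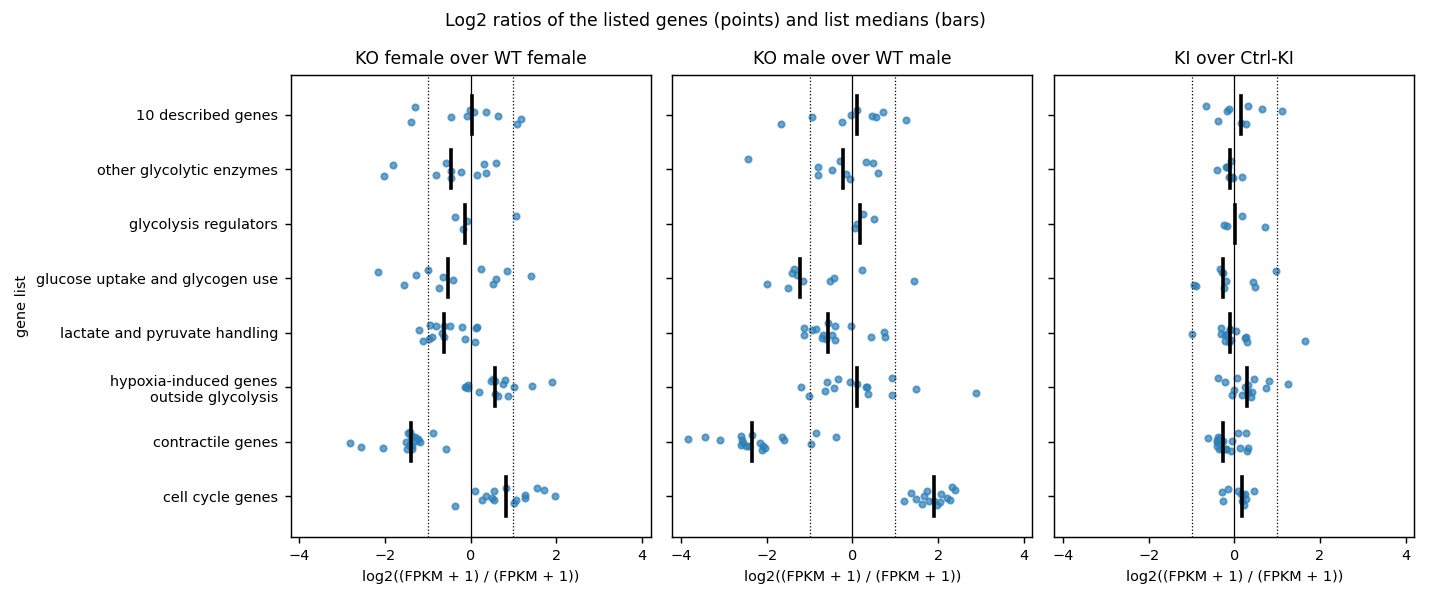
Log2((FPKM + 1)/(FPKM + 1)) of mutant over control for the genes of each list at 1 FPKM or more (points), with list medians (bars) and 2-fold lines (dotted). In both KO panels the contractile list lies lowest (medians -1.39 and -2.34) and the cell cycle list highest (0.82 and 1.89), and the 10 genes straddle 0.

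The state of the cultures differed beside these values. Contractile genes were at least 2-fold lower for 18 of 20 in female KO and 16 of 19 in male KO cells, and 0 of 19 in KI. Their summed level was 5879 FPKM in female KO against 15824 in female WT, 5244 in male KO against 23789.8 in male WT, and 17089 in KI against 19927 in Ctrl-KI cells. Cell cycle genes were at least 2-fold higher for 7 of 15 in female KO, 15 of 15 in male KO and 0 of 11 in KI. In bulk RNA, fewer differentiated cells and less RNA of a gene per cell cannot be told apart. Fibro-adipogenic markers, 11 genes, summed to 769 FPKM in female KO against 326 in female WT, 99.4 in male KO against 20.9 in male WT, and 463 in KI against 11.1 in Ctrl-KI cells, with 4, 5 and 7 of them at least 2-fold higher. Lum was listed at 0 in both male columns. The male KO sum was mostly Col3a1 (59.1 against 16.4 in WT) and Thy1 (22.1 against 0.241). Pdgfra (0.697 against 0.179) and Dcn (0.768 against 0.245) were under 1 FPKM in both male columns. In female KO, female WT, KI and Ctrl-KI cells the collagens Col1a1, Col1a2 and Col3a1 took up most of the sum. There Pdgfra was 13.7 in female KO against 2.46 in female WT, and Dcn 69.4 against 15.9, with bounds apart. Endothelial markers, 10 genes, summed to 36.5 in female KO against 22.8 in female WT, 73.7 in male KO against 2.83 in male WT, and 10.96 in KI against 3.31 in Ctrl-KI cells. At least 2-fold higher were 0 of 7 in female KO, 4 of 5 in male KO and 1 of 2 in KI, with 0 lower. Most of the male KO sum was Emcn (40.6 against 0.0268 in WT), and most of the KI sum was Eng (7.64 against 2.12 in Ctrl-KI). Immune markers, 9 genes, summed to 16.6 in female KO against 9.24 in female WT, 495 in male KO against 392.3 in male WT, and 387 in KI against 357 in Ctrl-KI cells, with the defining marker Ptprc at most 0.224 FPKM in any column. The male and KI sums were mostly the locus of Cd68, merged there with Eif4a1 and Senp3 (485 in male KO against 391 in male WT, 354 in KI against 356 in Ctrl-KI). Of the immune markers above the floor, 1 of 2 was at least 2-fold higher in each table. In females it was Csf1r (2.58 in KO against 0.477 in WT cells). In males and KI it was the macrophage marker Lyz2, at 7.94 in male KO against 0.681 in male WT cells (2.41), and 31.0 in KI against 0.282 in Ctrl-KI cells (4.64, bounds apart). Itgam, under 1 FPKM in every column, was lower in each mutant: 0.338 against 0.451 in females, 0.149 against 0.700 in males, and 0.331 against 0.689 in KI (bounds apart in KI). Of the immune markers under 1 FPKM in both KI and Ctrl-KI cells, only Itgam was lower in KI. Higher there with bounds apart were Ptprc (0.224 against 0.00345), Emr1 (0.316 against 0.00174), Fcgr3 (0.665 against 0.00388) and Cd14 (0.232 against 0.0456). Csf1r (0.650 against 0.00621) and Cd74 (0.313 against 0.00468) were higher with overlapping bounds. Genes under 1 FPKM in a control entered these counts through the mutant column alone. The part of any of these cell types in the glycolytic values was not tested.

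The female KO and WT libraries also stood apart from the rest in their level of several of the 10 genes, although the tables were estimated separately and no level was tested across them. Pfkp was 102 FPKM in female WT, 4.11 in male WT cells and 2.44 in Ctrl-KI cells. Pfkl was 178 against 24.0 and 14.3, Hk2 56.9 against 9.07 and 7.22, and Aldoc 3.70 against 0.0655 and 0.0268, in the same order of groups. Female WT and Ctrl-KI cells are both labelled female, so the labelled sex does not follow this split. The ratio of female WT to male WT had a median of 2.61 over the 9 of these genes at 1 FPKM or more in all 3 controls, where the median of 9243 genes was 1.03, and 3 of the 9 exceeded 5-fold, as did 3.12% of all genes. The ratio of Ctrl-KI to male WT had a median of 0.796 over the 9 and 1.01 over all.

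Hypoxia-induced genes outside glycolysis were higher in the same 2 libraries. Of 14 at 1 FPKM or more in the 3 controls, 12 were over 5-fold higher in female WT than in male WT, with a median ratio of 12.2, while contractile genes had a median of 0.951 and cell cycle genes 1.41. The 16 genes of the hypoxia list summed to 8436 FPKM in female KO and 5430.4 in female WT, 459 in male KO and 469.6 in male WT, and 436 in KI and 358 in Ctrl-KI cells. Vegfa, the vascular growth factor, was 2159 FPKM in female KO and 1512 in female WT cells, against 68.5 in male KO and 87.1 in male WT cells. Among the female libraries 3 of 16 hypoxia genes were at least 2-fold higher in KO, Ero1l (1115 in KO, 296 in WT), Ndrg1 (725 in KO, 268 in WT) and Kdm3a (288 in KO, 141 in WT), with a median of 0.57. In male KO 2 of 15 were past 2-fold on the higher side, Adm (13.4 in KO, 0.937 in WT) and Hmox1 (127 in KO, 44.5 in WT). On the lower side were 2, P4ha1 (36.7 in KO, 86.3 in WT) and Bnip3 (45.9 in KO, 93.3 in WT), with a median of 0.11. In KI 1 of 16 was past 2-fold on the higher side, Adm (3.42 in KI, 0.858 in Ctrl-KI), with a median of 0.30. Of all genes, 4.49% were at least 2-fold higher in female KO, 9.9% higher and 6.47% lower in male KO, and 3.86% higher in KI. The oxygen or density of the cultures is not in the labels, and its part in these levels was not tested.

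**Figure D5:**
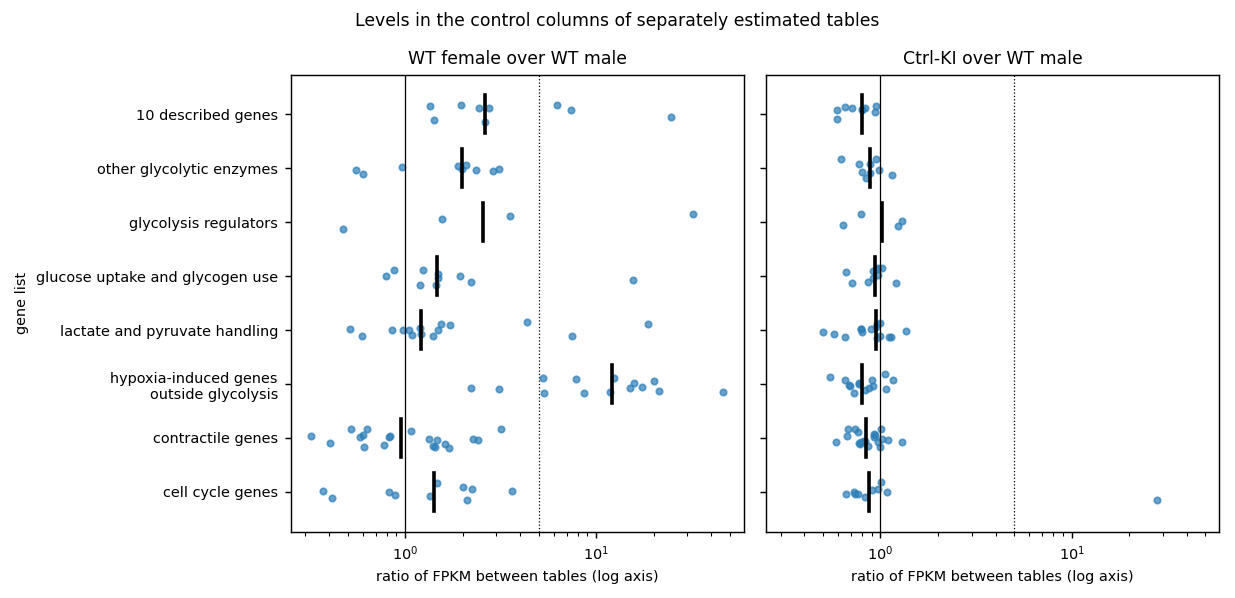
Ratio of FPKM between control columns of separately estimated tables (log axis) for the listed genes at 1 FPKM or more in all 3; bars are list medians and the dotted line marks 5-fold. Left, the hypoxia list lies highest in female WT over male WT (median 12.2) and 3 of the glycolytic genes exceed 5-fold; right, Ctrl-KI over male WT runs from 0.499 (Pdk1) to 1.37 (Mpc1) apart from Birc5 at 28.2, which shares its locus with another gene in the KI table.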

How the data were processed

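RNA of 8 libraries was analysed. The submitters' processing notes name TopHat2 (2.0.12), Bowtie2 (2.2.4), Cuffdiff, Cufflinks (2.2.1), edgeR, bedtools (2.16.2), HTSeq (0.6.1) and build mm9, in no stated order or role, and the annotation and library scaling are not given in the sources used here. The authors deposited FPKM with lower and upper confidence bounds, whose level is not stated, in 3 gene tables in the layout of Cuffdiff, per the file headers. For KI a fit over replicate libraries was planned but not possible, its 2 libraries per group being pooled in 1 column.

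Loci without a symbol (0 female, 5680 male, 5971 KI) or with a status other than OK (6, 61 and 15) were left out, and genes with at least 1 FPKM in 1 column kept. Ratios used a pseudocount of 1 FPKM, which understates the change of low genes. Depth is unknown. Among loci above 0 and below 0.3 FPKM in both columns, the most frequent ratio of mutant to control was 0.667, 0.990 and 0.844 in the 3 tables. Locus starts are printed 1 higher than in the files, since 210 of 211 microRNA loci within 5 bases of the RefSeq length matched it only when counted from 0. FPKM of overlapping genes and close paralogues is uncertain where strand is not stated. Whether libraries stand for separate animals is not stated, so the joint p-values are not known to measure a spread between animals. They rest on the difference between the female and male ratios, each from 1 KO and 1 WT library. The fit moderates that spread with the trend over all genes (limma 3.58.1 in R 4.3.3, mean-variance trend). It was also run on simulated data in which both sexes had the same true change. That run does not check genes that differ between the sexes, such as Ldhb. Other steps used python 3.11.15, pandas 2.3.3 and numpy 2.4.6.

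The genes and lists were chosen with earlier results of these data known. Named besides the 10 genes are Kdm6a, list members past 2-fold with at least 5 FPKM (at most the 4 highest and 4 lowest per list), and the isozyme partners Pgam1, Pgam2, Eno1, Eno3 and Pkm with Gapdh, Tpi1, Gpi1, Slc2a1, Slc2a4 and Slc16a3. Vegfa, Pdk1, Phkg1, Adm in KI, Birc5, Lum, Cd68, Lyz2, Csf1r, Itgam, Acta2, Pdgfrb, Cspg4, Cnn1, Ptprc, Myod1 and Myog were added after their values were seen. So were Pax7, Pdgfra, Dcn, Thy1, Col1a1, Col1a2, Col3a1, Emcn, Eng, Emr1, Cd14, Cd74, Fcgr3, Abcc9, Ngfr and Sox10. Pkm, Mpc1 and Mpc2 stand in the files as Pkm2, Brp44l and Brp44. Pericyte and smooth muscle markers (8 genes) summed to 351 FPKM in female KO against 696 in female WT, 739 in male KO against 2018 in male WT, and 1862 in KI against 2303 in Ctrl-KI cells. Most of each sum was Acta2 (312 and 663, 724 and 2000.3, 1820 and 2290 FPKM in the same order). Past 2-fold on the higher and lower side were 1 and 2 of 6 in female KO, 2 and 2 of 4 in male KO, and 3 and 0 of 6 in KI, with a KI median of 0.86 (Pdgfrb 26.7 in KI against 0.442 in Ctrl-KI, Cspg4 5.81 against 0.873, Cnn1 1.13 against 0.0275). Abcc9 was lower in KI, at 6.83 against 11.2 in Ctrl-KI (-0.64, bounds apart). It was also lower in female KO (6.41 against 14.2 in WT) and male KO (2.73 against 14.9 in WT). Schwann and glial markers (6 genes) summed to 10.7 FPKM in female KO against 9.33 in female WT, and 2.04 in male KO against 1.89 in male WT. In KI they summed to 4.83 against 2.52 in Ctrl-KI cells. At least 2-fold higher were 0 of 3 in female KO, 0 of 1 in male KO and 1 of 2 in KI, with 0 lower. The KI gene was Ngfr (1.57 against 0.149, bounds apart), and Sox10, under 1 FPKM, was 0.621 against 0 (bounds apart). The alternatives are given in the closing section.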

Additional observations from a re-analysis of the deposited data

Results flagged for a closer look

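Ldhb was the sole gene of the 10, or of the pathway lists, that was at least 2-fold apart in both sexes and in opposite directions, with a log2 ratio of KO over WT of -1.30 in females and 1.25 in males. The difference between the sexes was not tested, since each group has 1 library. The deposited bounds overlapped within each sex.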

How the results depend on the processing

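Counts of genes at least 2-fold apart depended on the settings. With a pseudocount of 0.1 FPKM the female count was 1747 in place of 1097. With a pseudocount of 5 FPKM it was 442 in females, 918 in males in place of 1872, and 224 in KI in place of 527. Asking also for bounds apart left 110 in females and 99 in males, and 0 of the glycolytic genes in both. In KI a filter of 5 FPKM gave 344, TPM over all loci 1879 and TPM without small RNA genes 792 genes. For the glycolytic genes the KI count of 1 became 0 with a pseudocount of 5 FPKM and 2 with TPM over all loci, which were Aldoa and Ldhb, both lower. The joint limma fit called 1 gene with a pseudocount of 0.1 FPKM, 1 with TPM without small RNA genes and 130 with a filter of 5 FPKM, in place of 0. The causes were not tested.

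Among the settings tried for single genes, 242 of 250 values lay within the range set by the deposited bounds. Filter, status and merged-locus settings cannot change a kept gene's ratio, and the KO ranges are wide (male Pfkp -3.49 to 4.13). That count is therefore no measure of stability. The 8 values outside the range came from TPM over all loci in the KI table, which shifts all genes there. That setting also took the male ratios of Aldoa, Ldha and Pgk1 to -1.74, -1.04 and -0.84, with 0 higher and 3 lower of the glycolytic genes past 2-fold in males. It turned the male ratios of Pfkl and Pfkp to -0.62 and -0.17, and the KI ratios of Hk2, Pfkl, Pgk1 and Ldha to -0.11, -0.45, -0.55 and -0.67. Isozyme shares kept their values without merged loci, except for KI aldolase, which could not be computed. No paired analysis was possible because the KI and Ctrl-KI columns carry no replicate numbers, and leaving out a replicate was not possible with 1 column per group. FPKM keeps no counts, so the bounds are what limits precision: in the KO tables they span more than the FPKM itself for each of the 10 genes.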
